A study of Homo sapiens with 19 samples.

Results

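Cycling cells were examined in human liver organoids from ultra-low attachment (ULA) plates, in which floating aggregates do not adhere. The organoids were grown from W01, an established wild-type pluripotent stem cell line distributed by WiCell, and were untreated. They were sampled on day 21 (n = 3 libraries) and day 34 (n = 2) of differentiation and sequenced cell by cell in droplets (10x Genomics, 3′ end, v3 reagents). Day 34 organoids received a further wash and trypsin incubation that day 21 organoids did not, so the day and the dissociation cannot be told apart. The labels do not say whether the replicates were separate cultures, so every p-value measures the spread between these libraries, which may be technical, and all libraries came from 1 line.

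A cell was kept when it had at least 500 genes and at most 20% mitochondrial counts, and it was called cycling when at least 3 of 6 genes (TOP2A, MKI67, CDK1, UBE2C, CENPF and NUSAP1) each had at least 1 unique molecular identifier (UMI, the tag that marks 1 captured RNA molecule). This rule selected 12613 of 34289 kept ULA cells, out of 120240 kept cells in all 19 libraries. The members were thus selected on the measured UMIs of these 6 genes, so their levels and the difference between cycling and other cells are descriptions and were not tested.

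As background, a dividing cell copies its DNA in S phase and separates it in mitosis, and the genes for the 2 steps are switched on one after the other. E2F factors drive S phase genes, and a complex with B-MYB and FOXM1 drives the genes of G2 and mitosis through a short promoter element called the CHR. Many of these promoters also hold CCAAT boxes, a separate short element. CDK inhibitors such as p21 (CDKN1A) hold cells out of the cycle. In the developing liver both the hepatoblasts, which give rise to hepatocytes and bile duct cells, and the surrounding mesenchyme divide, and division slows as cells differentiate.

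Total counts were 73799160 to 92522222 UMIs per ULA library. The median cycling cell held 14853, 12244.5 and 13429.5 UMIs in the 3 day 21 libraries and 19473 and 8328 UMIs in the 2 day 34 libraries, against 9637, 8549, 8045, 12838 and 5227 UMIs in the other cells of the same libraries. Cycling cells were thus the deeper cells in every library, and day 34 replicate 2 was the shallowest of these libraries by median UMIs per cell. Since a deep cell passes a 1-UMI rule more easily, the share of cycling cells is also given after every cell was thinned at random to 3000 UMIs. Thinning left out 1.27% to 12.1% of the kept cells, those that held fewer. Of 34158 barcodes, 131 occurred in at least 2 ULA libraries, 12 of them as cycling cells in at least 2. Day 34 replicate 2 stood apart by RNA of the squamous keratin KRT5, which had at least 2 UMIs in 4549 of its 11260 thinned cells. The count was 613 of 4271 in day 34 replicate 1 and 5 to 9 cells in each day 21 library. Not every squamous keratin followed KRT5. As a part of summed UMIs, KRT13 and KRT15 were also higher in day 34 replicate 2 than in day 34 replicate 1. KRT6A was higher in day 34 replicate 1, in both cycling and other cells.

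The rule genes were abundant in the cells it selected. TOP2A, the topoisomerase that untangles DNA before mitosis, stood at 329, 327 and 466 counts per 1000000 UMIs of the summed cells (CPM) in day 21 cycling cells and at 351 and 352 CPM on day 34, against 3.77 to 15.7 CPM in other cells. MKI67, which coats mitotic chromosomes, stood at 191, 136 and 214 CPM on day 21 and at 264 and 261 CPM on day 34. UBE2C, the ubiquitin-conjugating enzyme of the anaphase-promoting complex, ranged from 394 to 611 CPM and CENPF, a kinetochore protein, from 375 to 611 CPM. CDK1, the mitotic kinase, ranged from 136 to 245 CPM, and NUSAP1, a spindle protein, from 59.2 to 75.6 CPM. At equal depth a TOP2A UMI was found in 54.5% to 63.4% of cycling cells and in 1.45% to 4.63% of other cells. Over the 5 libraries together 4622 members had all 6 genes, 3449 had 5, 2434 had 4 and 2108 had 3. Members with all 6 were the most frequent in each library except day 34 replicate 2, where 867 had 6 genes, 1049 had 5 and 907 had 4. Just inside the rule, cells with 3 genes held a median of 5 UMIs over the 6 genes together, and just outside it, 2362 cells with 2 genes held a median of 3 UMIs.

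Cell cycle genes that the rule did not use moved with it. Of 49 further G2 and mitosis genes, 44 were at least 2-fold higher in cycling than in other cells in every library, with a median log2 ratio of 3.39, against 2.63% of the 9351 genes measured and a median of 0.02 over those genes. PLK1, a mitotic kinase, had a log2 ratio of 4.31 to 5.70, AURKB, the kinase of the chromosomal passenger complex, 3.86 to 5.76, and CCNA2, which encodes cyclin A2, 3.74 to 6.14. S phase genes were raised less: 13 of 39 measured passed 2-fold in every library, with a median log2 ratio of 0.90. RRM2, which makes deoxynucleotides, had a log2 ratio of 2.71 to 5.74, and PCNA, the sliding clamp of replication, 0.66 to 2.06. FOXM1, the factor that drives mitotic genes, had a log2 ratio of 3.16 to 5.33. Only 2 genes (0.0214% of those measured) were at least 2-fold lower in every library: S100A9, a calcium-binding protein, and NKAIN4. None of 9 measured CDK inhibitor and growth arrest genes passed 2-fold in every library. CDKN2B (p15) came nearest, lower in cycling cells by log2 ratios of -1.43 to -0.98 and past 2-fold in 4 of 5 libraries. CDKN1A was lower in cycling cells by log2 ratios of -0.70 to -0.29, CDKN1C (p57) by -0.84 to -0.31, and CDKN1B (p27) was higher by 0.79 to 0.99. The 2 classes share libraries and differ in depth, and how many S phase cells the rule leaves out was not tested.

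Promoter sequence is shown for 3 rule genes and 2 mitotic genes described below because each holds CCAAT boxes, and MKI67, CCNB2 and CDC20 also the CHR core. The 100 bases before the start are printed 5′ to 3′ on the gene's strand, from RefSeq (GRCh38.p14); capitals mark TTTGAA, the core of the CHR, and CCAAT, each searched on both strands (as TTCAAA and ATTGG on the other).
TOP2A: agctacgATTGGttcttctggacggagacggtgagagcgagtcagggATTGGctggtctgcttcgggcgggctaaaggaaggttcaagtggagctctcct
MKI67: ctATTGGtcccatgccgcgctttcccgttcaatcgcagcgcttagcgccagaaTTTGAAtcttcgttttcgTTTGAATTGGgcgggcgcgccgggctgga
CENPF: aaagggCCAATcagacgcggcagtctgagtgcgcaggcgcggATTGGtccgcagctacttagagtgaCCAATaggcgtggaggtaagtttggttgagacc
CCNB2: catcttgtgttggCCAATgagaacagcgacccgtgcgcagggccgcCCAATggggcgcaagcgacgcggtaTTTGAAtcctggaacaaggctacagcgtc
CDC20: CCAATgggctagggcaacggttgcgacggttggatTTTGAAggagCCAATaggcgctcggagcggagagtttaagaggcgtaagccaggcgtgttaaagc
They lie at chr17:40417897-40417996 (minus strand), chr10:128126424-128126523 (minus), chr1:214603095-214603194 (plus), chr15:59105046-59105145 (plus) and chr1:43358881-43358980 (plus). In MKI67 a TTTGAA and an ATTGG share a base. A gene with more than 1 listed start was counted when any of its windows held the match. By this count all 5 rule genes with an entry held a CCAAT, and 2 of the 5 a TTTGAA. For CDK1, not printed, the window at chr10:60778378-60778477 held 2 CCAAT and 2 TTTGAA, and that at chr10:60778231-60778330 held 0 of either. UBE2C was not matched. Over the 42 of 49 G2 and mitosis genes matched, 17 (40.5%) held a TTTGAA, 26 (61.9%) a CCAAT and 13 (31.0%) both. Over 31 matched S phase genes, 1 (3.23%) held a TTTGAA, 18 (58.1%) a CCAAT and 0 both. Over all 27305 genes with an entry the shares were 5.76%, 21.6% and 1.17%. A match describes the letters and is no evidence of binding in these cells.

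The share of cycling cells was lower on day 34. It was 46.4%, 45.2% and 47.02% of cells in the 3 day 21 libraries and 21.0% and 28.9% in the 2 day 34 libraries. The groups did not overlap, with a mean of 46.2% ± 0.92 (SD, n = 3) against 25.0% ± 5.59 (SD, n = 2), and the difference of 21.2 percentage points exceeded the spread within either day. The exact permutation test over libraries gave p = 0.2 (two-sided), the smallest that 3 against 2 libraries allow. At 3000 UMIs per cell the shares were 26.6%, 25.9% and 31.5% on day 21 and 11.2% and 18.4% on day 34. Their means were 28.0% ± 3.04 (SD, n = 3) and 14.8% ± 5.13 (SD, n = 2), a ratio of 0.53 of day 34 to day 21 (exact permutation p = 0.2). At this depth the share was lower than at full depth in every library, and the day ratio was close to the 0.54 found at full depth.

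**Figure D1:**
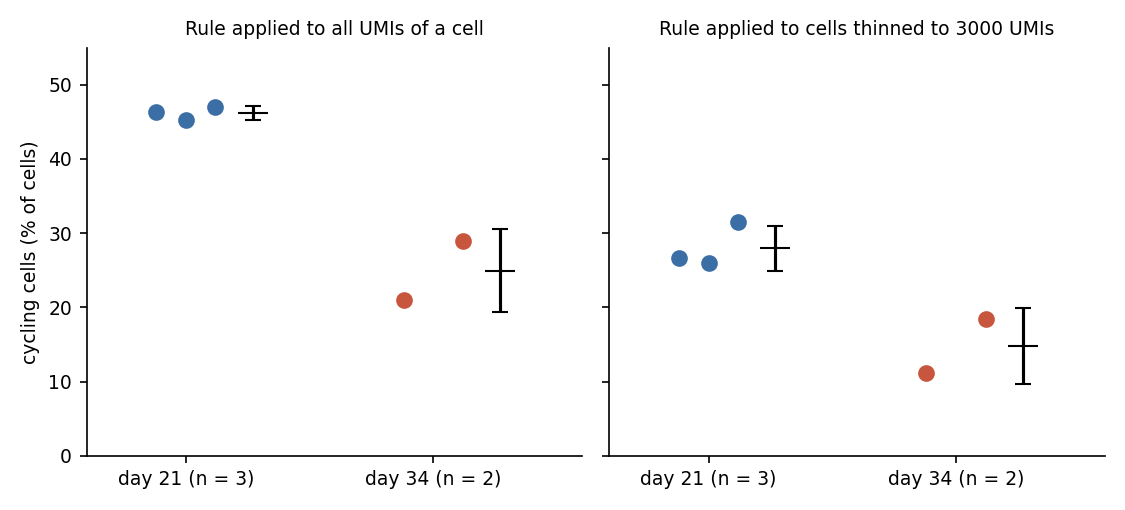
Cycling cells as a percentage of kept cells in each ULA library (points), with the mean and SD beside them (bars), by the rule on all UMIs (left) and after thinning each cell to 3000 UMIs (right). The 3 day 21 libraries lie between 45.2% and 47.02% on the left and between 25.9% and 31.5% on the right, above both day 34 libraries in each panel.

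Untreated organoids from the same line kept on an orbital shaker to day 25 had a thinned cycling share of 8.96% ± 1.01 (SD, n = 2). Day 21 ULA libraries were 19.04 percentage points above that (exact permutation p = 0.2) and day 34 ULA libraries 5.83 points above it (exact permutation p = 0.333, the smallest that 2 against 2 libraries allow). Only 6426 of 9479 and 2316 of 5724 kept shaker cells held at least 3000 UMIs, a smaller part than in any ULA library. Culture format, day, gene annotation and the part of cells left out by thinning differ together in this comparison.

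Both lineages contained cycling cells. A cell with at least 3000 UMIs was called mesenchymal-marked when COL1A2 and COL3A1, which encode fibrillar collagen chains, together had at least 3 UMIs after thinning, and epithelial-marked when EPCAM (an epithelial adhesion molecule), KRT7 (a duct keratin) and AFP (the fetal liver serum protein) together had at least 3. Cells that met both were called double-marked, and cells that met neither, unmarked. Of 12323 cycling cells with that depth, 5862 (47.6%) were mesenchymal-marked, 2360 (19.2%) epithelial-marked, 784 (6.36%) double-marked and 3317 (26.9%) unmarked. These classes are ranges of a count and not cell types: 4699 cycling cells (38.1%) lay within 1 UMI of a minimum.

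With members chosen on all UMIs, the lineage makeup of the cycling cells lay within 6 percentage points of that of all cells. This held in each library for both marked lineages. Mesenchymal-marked cells made up 40.4%, 52.2% and 43.9% of cycling cells on day 21, and 82.1% and 44.1% on day 34. Among all cells of that depth, cycling or not, they made up 42.8%, 56.6% and 45.7% on day 21, and 76.1% and 43.05% on day 34. Day 34 replicate 1 was therefore mostly mesenchymal-marked, while replicate 2 lay within the day 21 range for members chosen on all UMIs. The means were 45.5% ± 6.06 (SD, n = 3) and 63.1% ± 26.8 (SD, n = 2), which did not differ beyond the spread (exact permutation p = 0.4), and without day 34 replicate 1 the difference turned from 17.6 to -1.34 percentage points. Epithelial-marked cells made up 30.2%, 18.5% and 26.4% of cycling cells on day 21, and 1.99% (18 cells) and 9.54% (332 cells) on day 34. Among all cells they made up 28.8%, 16.9% and 26.0%, and 3.23% and 11.5%. Of the 332 cells, 214 lay within 1 UMI of a minimum, and with a lineage minimum of 5 UMIs the shares of cycling cells were 19.9%, 12.7% and 16.3% on day 21, and 1.22% and 2.85% on day 34. At the minimum of 3 UMIs the groups did not overlap (25.0% ± 5.92, n = 3, against 5.77% ± 5.34, n = 2; SD; exact permutation p = 0.2). Unmarked cells made up 21.4%, 23.5% and 22.4% of cycling cells on day 21, and 12.1% and 41.2% on day 34. The cycling unmarked cells of day 34 replicate 2 had a median of 17 UMIs from the duct list and 3 UMIs from the squamous list at 3000 UMIs per cell. The cycling epithelial-marked cells of the 3 day 21 libraries had medians of 16 to 18 and 0 on these lists. With members chosen after thinning, 725 of 1511, 810 of 1336 and 865 of 1742 cycling cells were mesenchymal-marked on day 21. On day 34 they were 391 of 477 and 942 of 2074. Their share exceeded that among all cells in every library, and day 34 replicate 2 lay below every day 21 library. Epithelial-marked were 361, 156 and 366 of these day 21 cells, and 8 and 184 of the day 34 cells. Their share lay below that among all cells in every library.

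Within each lineage the cycling share was lower on day 34. Among mesenchymal-marked cells at 3000 UMIs it was 29.8%, 27.7% and 34.2% on day 21 and 12.02% and 19.4% on day 34 (30.6% ± 3.28, n = 3, against 15.7% ± 5.24, n = 2; SD; exact permutation p = 0.2). Among epithelial-marked cells it was 22.1%, 18.0% and 25.4% on day 21, and 5.80% and 14.2% on day 34 (21.8% ± 3.75, n = 3, against 10.0% ± 5.94, n = 2; SD; exact permutation p = 0.2). Neither pair of groups overlapped. The day 34 means were 0.51 and 0.46 of the day 21 means, and the difference between these ratios was not tested. Without day 34 replicate 1 the epithelial difference moved from -11.8 to -7.62 percentage points, and with at least 4 of the 6 genes required it was -6.57. The lowest epithelial value, from day 34 replicate 1, rests on 8 of 138 cells, with an exact (Clopper-Pearson) 95% interval of 2.54% to 11.1% that covers counting error only.

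Mesenchymal-marked cells were cycling more often than epithelial-marked cells of the same library at equal depth. The difference was 7.72, 9.80 and 8.74 percentage points on day 21 and 6.23 and 5.24 on day 34, higher in 5 of 5 libraries, with a mean of 7.54 ± 1.84 (SD, n = 5). An exact sign-flip permutation test gave p = 0.063 (two-sided), the smallest that 5 pairs allow. The difference rested on the depth correction: with the rule on all UMIs it was -5.01, -8.23 and -2.82 percentage points on day 21 and 9.74 and 6.05 on day 34. It thus turned its direction in all 3 day 21 libraries and kept it in both day 34 libraries (mean -0.05, exact permutation p = 1). The epithelial-marked cells of day 21 held a median of 17858, 16999 and 17533 UMIs, against 9537, 9244 and 9321 UMIs in mesenchymal-marked cells. At equal depth unmarked cells cycled at 30.9%, 29.9% and 33.8% on day 21 and at 14.5% and 19.3% on day 34. These shares lay near or above the mesenchymal-marked ones, so the difference describes the marked classes and not all cells of a lineage. On day 21, cells with at least 10 lineage-gene UMIs cycled at 20.5%, 18.4% and 21.4% (mesenchymal-marked) against 17.6%, 16.5% and 19.1%. On day 34 they cycled at 9.62% and 16.7% against 0% (of 6 cells) and 6.25%.

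**Figure D2:**
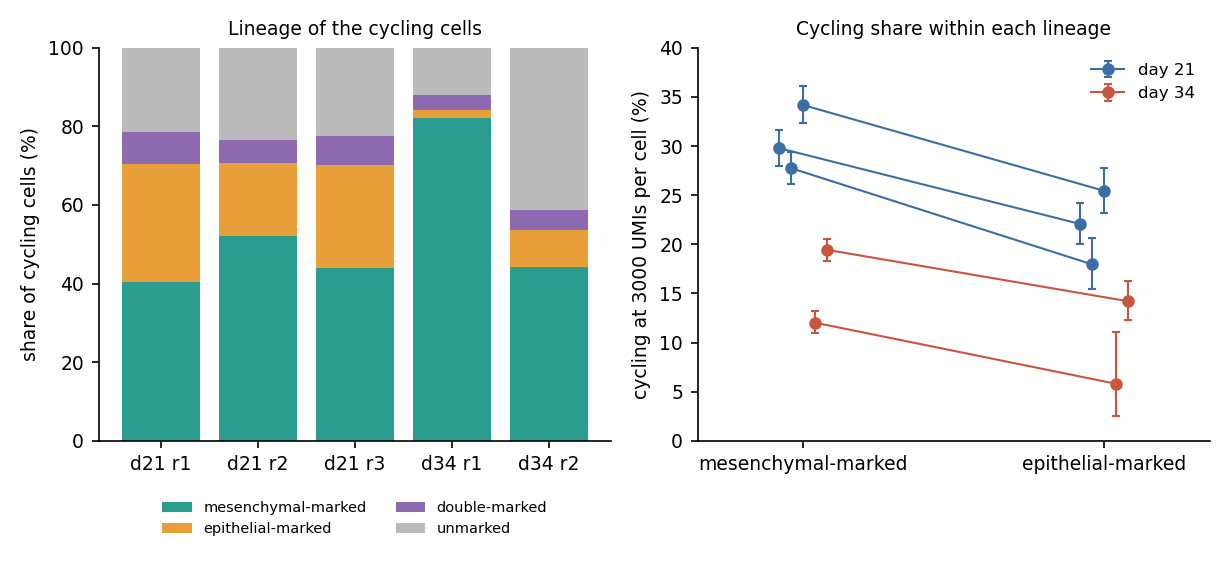
Left, share of each library's cycling cells (at least 3000 UMIs) in the 4 lineage classes; right, percentage of mesenchymal-marked and epithelial-marked cells that cycled at 3000 UMIs per cell, 1 line per library, with exact 95% binomial intervals. The mesenchymal-marked part reaches 82.1% in day 34 replicate 1, and each line falls from left to right, by 5.24 to 9.80 percentage points.

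Smaller groups, set by at least 2 UMIs of 1 gene at 3000 UMIs per cell, also held cycling cells. Among cells with APOA1, an apolipoprotein of hepatocytes and gut, 15.4%, 17.8% and 19.9% cycled on day 21. In day 34 replicate 2 the share was 11.3% (37 of 328 cells), while day 34 replicate 1 held 10 such cells. Cells with TTR, another gene of the hepatocyte list, cycled at 13.9%, 19.8% and 16.4% on day 21. Their share in day 34 replicate 2 was 17.8% (56 of 315 cells), within the day 21 range, and day 34 replicate 1 held 2 such cells. Among cells with LUM, the lumican of connective tissue, 28.0%, 24.5% and 30.6% cycled on day 21, and 11.6% and 20.2% on day 34. Cells with VTCN1, an immune checkpoint ligand, cycled at 15.3%, 6.67% and 15.0% on day 21 and at 4.35% and 3.13% on day 34, the last from 1 of 32 cells. Cells with KRT5, the basal keratin of stratified epithelium, cycled at 3.26% in day 34 replicate 1 (20 of 613 cells) and at 15.0% in day 34 replicate 2 (682 of 4549 cells). Double-marked cells cycled at 18.6%, 18.5% and 29.6% on day 21, and at 3.37% and 14.1% on day 34. High Scrublet doublet scores were the top part of each library, a part set in advance by its number of barcodes. That part was 5.27%, 5.89% and 5.70% of cells on day 21 and 3.61% and 10.7% on day 34. Cycling double-marked cells had high scores in 14.2%, 17.3% and 17.5% of cells on day 21 and in 8.57% and 27.2% on day 34. Cycling mesenchymal-marked cells had them in 8.24%, 10.5% and 8.30% on day 21 and in 8.23% and 24.1% on day 34. The part of doublets in these shares was not tested, and removing the highest scores changed no direction of the share differences between days.

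PTPRC and CDH5, which define immune and endothelial cells, were at or near 0 in the members. PTPRC, the pan-leukocyte marker, stood at 0 to 0.04 CPM, and CDH5, the endothelial cadherin, at 0.03 to 0.36 CPM in cycling cells of the 5 libraries. Over the immune list, the 6 genes summed to 0.50 to 1.59 CPM, with 0 to 3 of them at 0. The 6 endothelial genes summed to 32.3 to 68.1 CPM in cycling cells and to 30.9 to 66.9 CPM in other cells, with 0 to 2 of them at 0 in cycling cells. EGFL7, a secreted protein known from vessels, averaged 43.3 CPM in cycling and 43.5 CPM in other cells.

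Among mesenchymal-marked cycling cells, G2 and mitosis genes were lower on day 34. Of 49 such genes, none of them in the rule, 22 fell and 0 rose in edgeR's quasi-likelihood test at adjusted p under 0.05, against 7.8% of the 16530 genes tested that fell and 10.4% that rose. Their median log2 fold change was -0.51, against 0.02 over all genes tested. Log2 fold changes are scaled by TMM, which centres most genes near 0, while CPM are not. Scaled by library totals instead, the median over all genes tested was 0.16, 2325 genes rose and 749 fell (1714 and 1289 with TMM), and of the mitotic genes 20 fell and 0 rose (median -0.37). The summed level of the mitotic list was 8156, 7863 and 7596 CPM on day 21 and 6042 and 6069 CPM on day 34, with no overlap. Squamous list RNA was higher in the same day 34 cells (203 and 909 summed CPM), and in the cells without a squamous-list UMI the mitotic sums were 8259.5, 7908 and 7586 CPM against 6329.5 and 6996 CPM. There 20 of the 49 fell and 0 rose, with a median of -0.36. This restriction kept 1061 of 1092, 1221 of 1241 and 1223 of 1253 cells on day 21. On day 34 it kept 613 of 741 and 657 of 1535 cells, so it removed more of replicate 2. The share of all genes called in that fit is not given, here or below, so counts from it lack a background. CCNB1, which encodes cyclin B1, the partner of CDK1, stood at 347, 378 and 322 CPM on day 21 and at 150.4 and 194 CPM on day 34 (log2 fold change -1.17 ± 0.20 SE, edgeR adjusted p = 0.00481). CCNB2, cyclin B2, stood at 247, 269 and 209.8 CPM against 109.6 and 108 CPM (-1.30 ± 0.18 SE, edgeR adjusted p = 0.00231). CDC20, the activator of the anaphase-promoting complex, stood at 169, 181 and 149 CPM against 68.3 and 74.0 CPM (-1.37 ± 0.18 SE, edgeR adjusted p = 0.00132). TTK, the kinase of the spindle checkpoint, stood at 80.2, 93.3 and 83.8 CPM against 41.2 and 42.3 CPM (-1.19 ± 0.17 SE, edgeR adjusted p = 0.00229). All day 34 values of these 4 genes lay below all day 21 values. The promoters of CCNB2 and CDC20 are among those printed above. Which cells enter this comparison depends on depth, since mesenchymal-marked cells of day 34 replicate 1 were deeper (median 14224 UMIs) and those of replicate 2 shallower (6076 UMIs) than on day 21. When members were chosen after thinning, 10 of the 49 fell and 0 rose, with a median of -0.30, and CCNB1 kept its call (-0.88 ± 0.19 SE, edgeR adjusted p = 0.00968). The count was 7 without day 21 replicate 1 and 13 without day 21 replicate 2.

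Of 42 S phase genes in these cells 9 fell and 0 rose, with a median log2 fold change of -0.32, against 7.8% of all genes tested that fell; the difference from the mitotic list was not tested. Scaled by library totals, 4 fell and 1 rose (median -0.17). The summed level of the list overlapped between days, at 3161, 2738 and 3350 CPM on day 21 and at 2717 and 2803 CPM on day 34. In the cells without a squamous-list UMI it also overlapped, at 3187, 2752 and 3355 CPM against 2931 and 3209.8 CPM, and there 7 of the genes fell and 1 rose (median -0.20). CDCA7, a chromatin protein and MYC target, stood at 45.2, 40.8 and 59.1 CPM on day 21 and at 23.1 and 23.7 CPM on day 34 (-1.19 ± 0.19 SE, edgeR adjusted p = 0.00425). PRIM1, a subunit of DNA primase, stood at 34.5, 41.7 and 42.1 CPM against 23.1 and 24.5 CPM (-0.88 ± 0.18 SE, edgeR adjusted p = 0.0104). With members chosen after thinning, 4 fell and 2 rose, and the sums were 2934.5, 2511 and 3148 CPM against 2875 and 2850.2 CPM. The count was 2 without day 21 replicate 1 or 2. Over all cycling cells the ratio of S phase to G2 and mitosis UMIs was 0.384, 0.356 and 0.423 on day 21 and 0.439 and 0.466 on day 34 (0.388 ± 0.034, n = 3, against 0.452 ± 0.019, n = 2; SD; exact permutation p = 0.2). The 2 groups did not overlap, by a margin smaller than the spread within day 21.

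Of 18 cyclins, CDKs and their transcription factors, 3 fell and 2 rose in mesenchymal-marked cycling cells; the rises are near the 10.4% of all genes that rose. The 3 that fell were CCNB1, CCNB2 and CCNA2, the last from 124, 129 and 134 CPM to 72.1 and 80.5 CPM (-0.91 ± 0.16 SE, edgeR adjusted p = 0.00636). CCND3 (cyclin D3) and RB1 (the retinoblastoma protein) rose, and neither call held in every fit that left out 1 library. CCND1, cyclin D1, stood at 102, 73.7 and 113 CPM on day 21 and at 87.6 and 119.6 CPM on day 34, with overlapping groups (-0.04 ± 0.21 SE, edgeR adjusted p = 0.923).

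Of 11 CDK inhibitors and growth arrest genes, 6 rose and 1 fell in mesenchymal-marked cycling cells, with a median log2 fold change of 0.95, against 10.4% of all genes tested that rose and 7.8% that fell. CDKN1A stood at 9.17, 5.64 and 11.4 CPM on day 21 and at 31.9 and 52.6 CPM on day 34 (2.13 ± 0.30 SE, edgeR adjusted p = 0.00385). GADD45A, a stress-induced arrest gene, stood at 36.3, 25.8 and 31.4 CPM against 75.6 and 64.3 CPM (1.03 ± 0.17 SE, edgeR adjusted p = 0.0047). BTG2, an antiproliferative p53 target, stood at 12.5, 4.19 and 14.05 CPM against 51.1 and 42.4 CPM (2.05 ± 0.44 SE, edgeR adjusted p = 0.0267), a call that was not kept in every fit that left out 1 library. CDKN2A, which encodes p16 and ARF, fell from 9.73, 8.72 and 7.12 CPM to 1.47 and 2.85 CPM (-2.13 ± 0.32 SE, edgeR adjusted p = 0.00309). Squamous list RNA rose in the same cells, from 9.64 to 16.6 summed CPM on day 21 to 203 and 909 summed CPM on day 34. In the mesenchymal-marked cycling cells without a squamous-list UMI after thinning, 4 of the 11 rose and 1 fell (median 0.54). BTG2 lost its call in these cells (1.75 ± 0.50 SE, edgeR adjusted p = 0.0745). There CDKN1A was higher by 1.51 ± 0.24 SE (edgeR adjusted p = 0.00157) and CDKN2A lower by -2.06 ± 0.32 SE (edgeR adjusted p = 0.0013). Of the 7 calls, the rises of CDKN1A and GADD45A and the fall of CDKN2A were kept in every fit that left out 1 library.

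**Figure D3:**
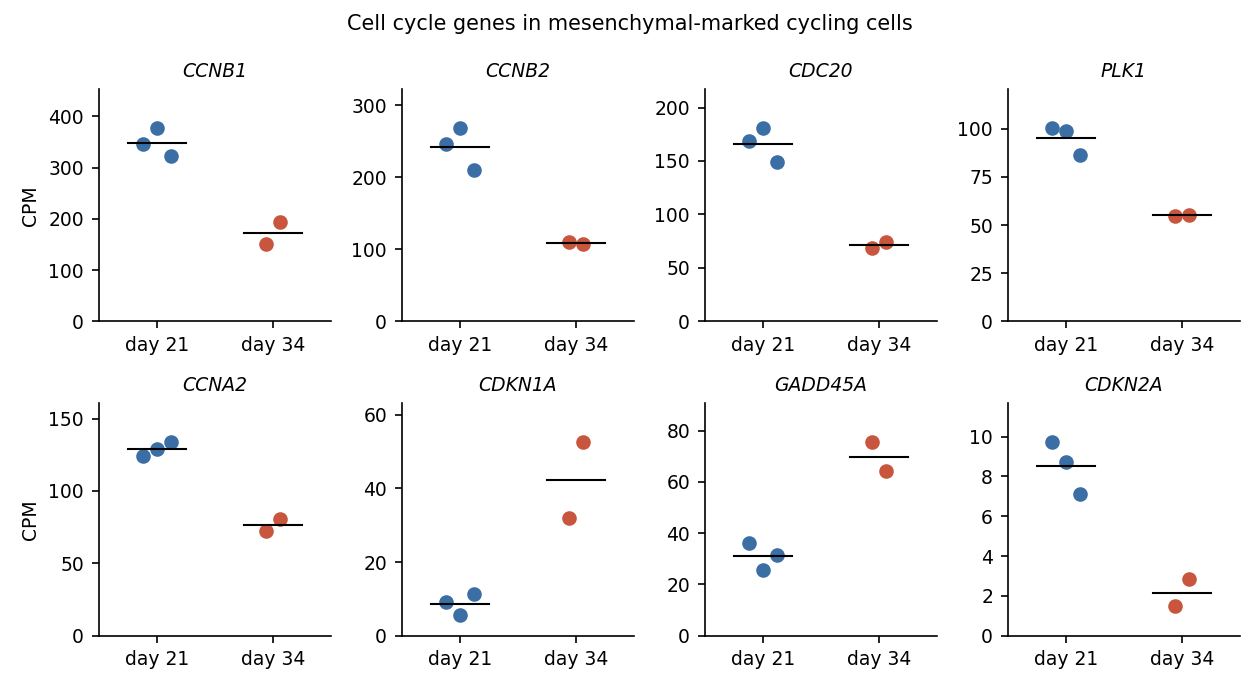
CPM of 8 cell cycle genes in mesenchymal-marked cycling cells, 1 point per library, with the mean of each day as a line (day 21, n = 3; day 34, n = 2). The points of CCNB1, CCNB2, CDC20, PLK1, CCNA2 and CDKN2A are lower on day 34, and those of CDKN1A and GADD45A higher, with no overlap in any panel.

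Growth factor genes changed in mesenchymal-marked cycling cells as well, with 11 of 22 ligands and receptors higher and 1 lower and a median log2 fold change of 0.75, against 10.4% and 7.8% of all genes tested. Of the 11 rises 4 were kept in every fit that left out 1 library, and the fall was kept. Epithelial RNA was higher in the same day 34 cells: the squamous list, as given above, and the duct list, of which 10 of 11 genes had higher values, 2 passed the test (median 0.85) and the sums were 2534, 2145 and 2527 CPM on day 21 and 2595 and 4754 CPM on day 34. In the cells without a squamous-list UMI, 8 of the 22 ligands and receptors rose and 1 fell, with a median of 0.45. FGFR3, a fibroblast growth factor receptor, stood at 3.47, 4.39 and 2.27 CPM on day 21 and at 11.9 and 16.0 CPM on day 34 (1.89 ± 0.29 SE, edgeR adjusted p = 0.00342). PDGFA, a platelet-derived growth factor ligand, stood at 34.9, 16.5 and 39.2 CPM against 109 and 97.3 CPM (1.64 ± 0.31 SE, edgeR adjusted p = 0.0133). Without squamous-list UMIs the call of PDGFA was lost (0.36 ± 0.42 SE, edgeR adjusted p = 0.611), and that of FGFR3 was kept at a smaller size (1.17 ± 0.32 SE, edgeR adjusted p = 0.0246). LGR5, a receptor for R-spondins, stood at 1.46, 0.393 and 1.07 CPM against 5.67 and 2.45 CPM (1.93 ± 0.51 SE, edgeR adjusted p = 0.0335), a call not kept in every fit that left out 1 library. The gene that fell was MDK, the heparin-binding growth factor midkine, from 2709, 3111 and 2283 CPM to 1050.4 and 1260.0 CPM (-1.37 ± 0.22 SE, edgeR adjusted p = 0.00425). Without squamous-list UMIs LGR5 (1.98 ± 0.50 SE, edgeR adjusted p = 0.0214) and MDK (-1.32 ± 0.23 SE, edgeR adjusted p = 0.00246) kept their calls. With counts thinned to 3000 UMIs per cell the call of LGR5 was lost (1.83 ± 0.71 SE, edgeR adjusted p = 0.102). It was also lost with the replicate number as a block (2.09 ± 0.42 SE, edgeR adjusted p = 0.0701), and kept with members chosen after thinning (2.24 ± 0.44 SE, edgeR adjusted p = 0.0065).

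Genes of large change in mesenchymal-marked cycling cells were picked among calls kept in every fit that left out 1 library. The 8 of largest rise among them were IGFL2, KRT17, AREG, GPNMB, MGP, INHBA, S100A9 and MT2A. INHBA, the activin A subunit, stood at 5.42, 4.98 and 6.61 CPM on day 21 and at 85.1 and 127 CPM on day 34 (4.07 ± 0.22 SE, edgeR adjusted p = 2.96e-05). AREG, an EGFR ligand, stood at 3.82, 2.95 and 5.23 CPM against 104 and 128 CPM (4.71 ± 0.23 SE, edgeR adjusted p = 2.96e-05). MGP, an inhibitor of matrix calcification, stood at 10.9, 12.6 and 6.17 CPM against 299 and 187 CPM (4.47 ± 0.34 SE, edgeR adjusted p = 0.000347). GPNMB, a membrane glycoprotein, reached 73.6 and 98.4 CPM, S100A9 96.1 and 121 CPM, and the metallothionein MT2A 768 and 257 CPM on day 34. IGFL2 rose from at most 0.315 CPM to 49.9 and 210.3 CPM. KRT17, a keratin of basal epithelium, rose from 4.93, 3.41 and 5.54 CPM to 358 and 1374 CPM (7.40 ± 0.68 SE, edgeR adjusted p = 0.00277). KRT17 also stood at 988 and 2046 CPM in the mesenchymal-marked cells that did not cycle and at 1112 CPM (18 cells) and 2134 CPM in the epithelial-marked cycling cells of the 2 day 34 libraries. It was thus not confined to 1 of these classes, and the part of free RNA in its level was not tested. In mesenchymal-marked cycling cells without a squamous-list UMI, the log2 fold change of KRT17 was 5.67, of AREG 3.75 and of INHBA 4.38.

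By the same choice, the 8 genes of largest fall in these cells were SUCNR1, IGDCC3, BAMBI, PSAT1, NPR3, TPD52L1, MTHFD2 and SHMT2. PSAT1, a serine synthesis enzyme, stood at 284, 291 and 225 CPM on day 21 and at 60.4 and 76.6 CPM on day 34 (-2.11 ± 0.21 SE, edgeR adjusted p = 0.000384). MTHFD2, a mitochondrial folate enzyme, stood at 215, 218 and 198 CPM against 59.3 and 66.1 CPM (-1.90 ± 0.17 SE, edgeR adjusted p = 0.000297). SHMT2, the mitochondrial serine hydroxymethyltransferase, stood at 219, 207 and 163 CPM against 61.1 and 61.7 CPM (-1.82 ± 0.19 SE, edgeR adjusted p = 0.000492). SUCNR1, the succinate receptor, fell from 58.3, 77.9 and 65.6 CPM to 2.18 and 5.70 CPM. BAMBI, a decoy receptor for TGF-beta family ligands, fell from 324, 256 and 252 CPM to 75.6 and 62.4 CPM. IGDCC3 fell from 357, 280.3 and 392 CPM to 72.8 and 24.8 CPM, NPR3, a natriuretic peptide clearance receptor, from 55.7 to 62.5 CPM to 22.6 and 11.2 CPM, and TPD52L1 from 258 to 321 CPM to 78.6 and 90.4 CPM. In all, 1714 genes rose and 1289 fell in this comparison. The total of 3003 was 990 without day 21 replicate 1, 1127 without replicate 2 and 1664 without replicate 3, and 1781 with counts thinned to 3000 UMIs per cell.

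**Figure D4:**
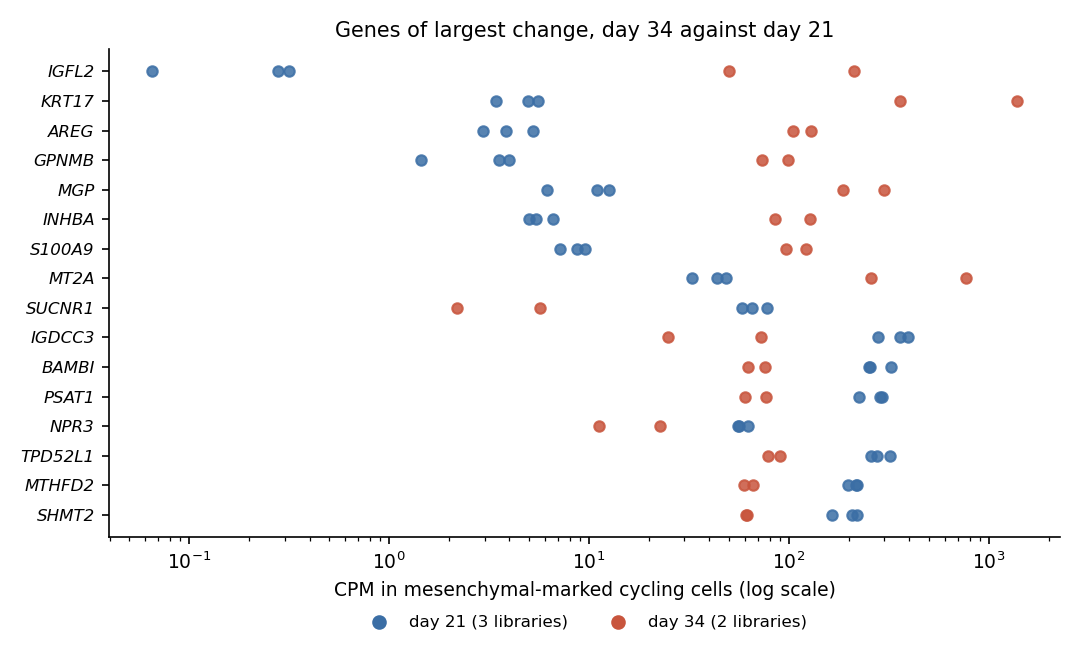
CPM (log axis) in mesenchymal-marked cycling cells of the 16 genes with the largest rise or fall between days, 1 point per library. Genes were chosen to have no overlap between days and a call kept in every fit that left out 1 library. KRT17 and IGFL2 differ more between the 2 day 34 libraries than PSAT1, MTHFD2 or SHMT2 do.

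Epithelial-marked cycling cells could be compared between days only as the 3 day 21 libraries against day 34 replicate 2, since replicate 1 held 18 such cells, fewer than the 50 required. The single day 34 library is assumed to vary like the day 21 libraries. Among 17065 genes 1278 rose (7.49%) and 1219 fell (7.14%); scaled by library totals instead of TMM, 2586 rose and 744 fell, and the median over all genes moved from -0.02 to 0.28. Gut genes were lower in 8 of 10 cases and higher in 1, with a median log2 fold change of -2.31 against -0.02 over all genes tested. LGALS4, an intestinal galectin, stood at 96.3, 94.5 and 169.5 CPM on day 21 and at 2.22 CPM on day 34 (-6.06 ± 0.61 SE, edgeR adjusted p = 9.97e-05). CDX2, the intestinal homeobox factor, stood at 64.9, 65.1 and 57.5 CPM against 8.06 CPM (-3.26 ± 0.31 SE, edgeR adjusted p = 9.82e-08). OLFM4, a marker of intestinal crypts, was the exception, at 0.866, 2.46 and 2.05 CPM against 87.3 CPM (5.35 ± 0.36 SE, edgeR adjusted p = 1.77e-06). Hepatocyte genes were lower in 7 of 11 cases and higher in 0, with a median of -2.56. Beyond that list, FABP1, the liver fatty acid binding protein, stood at 2548, 3438 and 3050.0 CPM against 249.6 CPM (-3.91 ± 0.37 SE, edgeR adjusted p = 8.97e-08). MTTP, which loads lipid onto apolipoprotein B, stood at 198, 253 and 269.9 CPM against 13.9 CPM (-4.43 ± 0.34 SE, edgeR adjusted p = 3.68e-09). Genes for prothrombin (F2) and the fibrinogen gamma chain (FGG) stood at 3.06 and 5.56 CPM on day 34, against at least 74.8 and 52.95 CPM in every day 21 library. Squamous genes were higher in 5 of 6 cases, among them KRT5 (5.87, 1.40 and 2.31 CPM against 581 CPM) and KRT13 (at most 0.205 CPM against 266 CPM), a keratin of mucosal squamous epithelium. In the same day 34 library KRT5 stood at 388 CPM in mesenchymal-marked and at 649.9 CPM in unmarked cycling cells, and KRT13 at 205.5 and 347 CPM. These keratins were thus present in mesenchymal-marked, epithelial-marked and unmarked cycling cells of that library. The part of free RNA in their level was not tested. S100A8 and LCN2, antimicrobial proteins of neutrophils and inflamed epithelium, stood at 123 and 78.1 CPM on day 34 and under 1 CPM in each day 21 library.

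The direction of the mitotic genes in epithelial-marked cycling cells depended on the scaling: of 49, 7 fell and 1 rose with TMM (median -0.12), against 7.14% and 7.49% of all genes tested, and 2 fell and 4 rose with scaling by library totals (median 0.19). Their summed level, which is not scaled by TMM, was 5642, 4918 and 5140.0 CPM on day 21 and 5813 CPM in day 34 replicate 2, above every day 21 value. With members chosen after thinning the sums were 8454.6, 7581.5 and 7002.1 CPM against 7704.9 CPM, within the day 21 range. In the same cells 4 of 42 S phase genes rose and 0 fell with TMM (median 0.21), a share near that of all genes that rose, and 11 rose and 0 fell with scaling by library totals (median 0.51). Of those 4 S phase calls 1 was kept in every fit that left out a library, and DESeq2 called 1. CDC20 stood at 152, 125 and 132 CPM against 74.2 CPM (-1.18 ± 0.24 SE, edgeR adjusted p = 0.00125), and kept its call without TMM (-0.88 ± 0.26 SE, edgeR adjusted p = 0.0101). CCNE2, cyclin E2 of S phase entry, stood at 3.27, 2.79 and 3.08 CPM against 12.8 CPM (1.75 ± 0.34 SE). Its call was lost with counts thinned to 3000 UMIs per cell (1.545 ± 0.57 SE). With members chosen after thinning the value was 2.67 ± 0.50 SE. The mitotic count was 2 without day 21 replicate 1, 4 without day 21 replicate 3 and 4 with members chosen after thinning. Whether the day difference itself differed between mesenchymal-marked and epithelial-marked cycling cells was not tested. Of 11 CDK inhibitors and growth arrest genes 10 had higher values (median log2 fold change 0.69). CDKN2B and CDKN2D, inhibitors of CDK4 and CDK6, were higher by 1.41 ± 0.31 SE each. They kept their calls in each fit without 1 day 21 library. Both calls were lost with counts thinned to 3000 UMIs per cell (1.38 ± 0.54 and 1.36 ± 0.48 SE).

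Cycling cells taken as a whole mix these lineages, so their day difference includes the change in makeup. Among 19632 genes 1556 rose (7.93%) and 1395 fell (7.11%); scaled by library totals, 2393 rose and 970 fell, and the median over all genes moved from 0.01 to 0.19. All 7 squamous genes rose, 7 of 11 hepatocyte and 6 of 10 gut genes fell, and 11 of 49 mitotic genes fell with 0 higher (6 fell and 1 rose with scaling by library totals). When 1 library was left out in turn, 2 of the 7 squamous, 3 of the 7 hepatocyte, 2 of the 6 gut and 1 of the 11 mitotic calls were kept in every fit. CKB, brain-type creatine kinase, stood at 2518, 3660.4 and 2068 CPM on day 21 and at 91.4 and 189 CPM on day 34 (-4.46 ± 0.46 SE, edgeR adjusted p = 0.00312). APOA1 stood at 617, 854 and 691 CPM against 49.4 and 109 CPM (-3.36 ± 0.40 SE, edgeR adjusted p = 0.00437). SERPINB1, a protease inhibitor, stood at 168, 157 and 163 CPM against 26.2 and 31.5 CPM (-2.67 ± 0.17 SE, edgeR adjusted p = 0.000741). The total of 2951 genes was 580, 997 and 464 when day 21 replicate 1, 2 or 3 was left out, 5643 without day 34 replicate 2, and 1543 with members chosen after thinning. Fewer cells of a lineage and less RNA per cell cannot be told apart in these sums.

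Within a library, mesenchymal-marked and epithelial-marked cycling cells differed in many genes, in part because 5 lineage genes of the same cells drew the classes. Over 4 libraries (day 34 replicate 1 had too few epithelial-marked cells), 3745 of 15974 genes were higher (23.4%) and 4137 lower (25.9%) in mesenchymal-marked cells. Scaled by library totals, 5319 were higher and 3124 lower, and the median over all genes moved from 0.01 to 0.18. The lineage genes are given as a description without tests. PRRX1, a mesenchymal homeobox factor, stood at 186, 167 and 174 CPM in mesenchymal-marked cells of day 21 and at 244 CPM on day 34, against 3.85, 3.53, 4.10 and 18.1 CPM in epithelial-marked cells. TBX2, a T-box factor, stood at 78.1 to 106 CPM against 2.50 to 6.12 CPM, and PDGFRB, the receptor of mural and stellate cells, at 35.7 to 58.8 CPM against 1.15 to 4.17 CPM. In the other direction, the apolipoprotein APOA2 stood at 543 to 1282 CPM in epithelial-marked cells against 5.37 to 18.5 CPM. TFF1, a gastric trefoil factor, stood at 39.2 to 187 CPM against 0.721 to 3.78 CPM, and the hepatocyte receptor FGFR4 at 20.6 to 46.4 CPM against 1.26 to 3.38 CPM. Lowest in epithelial-marked cells were, in each case, the values of day 34 replicate 2 for APOA2, TFF1 and FGFR4.

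The 2 lineages also differed in cell cycle genes. The lineages were not drawn on these, but both classes hold only cells chosen by the 6 cell cycle genes of the rule. Deeper cells pass that rule at lower levels, so the difference is not independent of how the cells were chosen. Of 49 G2 and mitosis genes 35 were higher and 2 lower in mesenchymal-marked cycling cells (median log2 difference 0.37, against 0.01 over all genes tested), and of 42 S phase genes 17 were higher and 0 lower (median 0.34). Of all genes tested 23.4% were higher and 25.9% lower. The mitotic list summed on day 21 to 8156, 7863 and 7596 CPM in mesenchymal-marked and to 5642, 4918 and 5140 CPM in epithelial-marked cells. In day 34 replicate 2 these sums were closer, at 6069 and 5813 CPM. The S phase sums were 3161, 2738 and 3350 against 2099, 1719 and 2085.5 CPM on day 21, and 2803 against 2752 CPM there. With members chosen after thinning that library gave 8059 against 7705 CPM, and for S phase 2850 against 2900 CPM, the reverse. KIF2C, a microtubule-depolymerising kinesin, stood at 75.0, 64.2, 64.4 and 51.4 CPM in mesenchymal-marked and at 35.5, 28.0, 28.8 and 40.03 CPM in epithelial-marked cells of the same libraries (0.80 ± 0.12 SE, edgeR adjusted p = 0.00277). GAS2L3, a cytoskeletal linker of cytokinesis, was lower, at 19.2, 20.7, 20.7 and 12.99 CPM against 33.4, 42.7, 37.8 and 17.5 CPM (-0.98 ± 0.14 SE, edgeR adjusted p = 0.00191). Epithelial-marked cells were the deeper ones on day 21 (above), and the part of depth was not tested beyond the alternatives. With members chosen after thinning, 23 mitotic genes were higher and 2 lower (median 0.27), and 12 S phase genes were higher and 0 lower. Chosen this way, the mitotic sums of day 21 were 10034, 9844.8 and 9279.5 CPM against 8454.6, 7581.5 and 7002.1 CPM in epithelial-marked cells. Scaled by library totals, 40 mitotic genes were higher and 1 lower (median 0.54), and 23 S phase genes were higher and 0 lower (median 0.51). The mitotic count was 10, 16 and 12 without day 21 replicate 1, 2 or 3, and the S phase count 6, 8 and 5, and 34 without day 34 replicate 2.

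Of 18 cyclins, CDKs and their transcription factors, 8 were higher and 2 lower in mesenchymal-marked cycling cells (median log2 difference 0.31), against 23.4% and 25.9% of all genes tested, and 2 of the 8 and 1 of the 2 calls were kept in every fit that left out 1 library. CDK6, a kinase of G1, stood at 149, 175, 163 and 149 CPM in mesenchymal-marked cycling cells and at 57.5, 61.5, 50.8 and 76.7 CPM in epithelial-marked ones (1.22 ± 0.10 SE, edgeR adjusted p = 0.000309). CCND1 was lower in mesenchymal-marked cells, at 102, 73.7, 113 and 119.6 CPM against 127, 162, 145 and 209 CPM (-0.82 ± 0.14 SE, edgeR adjusted p = 0.00477). Of 10 CDK inhibitors and growth arrest genes 1 was higher and 5 were lower in mesenchymal-marked cells (median -0.23), and with scaling by library totals 3 were higher and 4 lower (median -0.06). CDKN1A stood at 9.17, 5.64, 11.4 and 52.6 CPM against 41.7, 21.4, 47.97 and 87.8 CPM (-1.88 ± 0.30 SE, edgeR adjusted p = 0.00454). BTG2 stood at 12.5, 4.19, 14.05 and 42.4 CPM against 39.1, 17.1, 49.9 and 143 CPM (-1.96 ± 0.10 SE, edgeR adjusted p = 8.59e-05). GAS1, a growth arrest gene that is also a Hedgehog co-receptor, was higher in mesenchymal-marked cells, at 26.7, 22.4, 29.5 and 40.03 CPM against 11.6, 4.52, 9.02 and 15.0 CPM (1.47 ± 0.18 SE, edgeR adjusted p = 0.00118). Each of these 5 genes lay on the same side in 4 of 4 libraries. In a fit that ignores which library a class came from, the calls of CDKN1A (edgeR adjusted p = 0.104) and BTG2 (edgeR adjusted p = 0.0649) were lost.

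The day difference of cycling cells was also set against that of the other cells of the same libraries. It differed for 189 of 20717 genes, 147 with a higher (0.71%) and 42 with a lower (0.203%) log2 change in cycling cells (245 and 33 with scaling by library totals). No call held in every fit that left out a library, and 0 genes were called without day 21 replicate 3 (edgeR; 1998 genes had an unadjusted p under 0.05 there). None of 42 S phase genes and 1 of 49 mitotic genes was called. The S phase list summed to 1329.8, 1305 and 1459 CPM in the other cells of day 21 and to 634 and 1366 CPM in those of day 34, so day 34 replicate 1 alone was low. In cycling cells it summed to 2546, 2331 and 2682 CPM on day 21 and to 2686 and 2827 CPM on day 34.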

How the data were processed

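Per the labels, ULA organoids of the line W01 were profiled with 10x Genomics 3′ chemistry. Per the submitters' processing notes, bcl2fastq, Cell Ranger 3.0.2, Scanpy and GRCh38 were used. Which step each served, and the annotation, were not given in the sources used here. Deposited by the authors were UMI counts per gene and barcode. Gene names are those of the files. The members, lineage genes and gene lists were chosen with earlier results of these data known. Each cell was thinned to 3000 UMIs without replacement with a fixed seed. UMIs were summed per library and class (at least 50 cells). Sums were tested with edgeR 4.0.16 (TMM scaling, quasi-likelihood test, Benjamini-Hochberg adjustment over all genes kept by its count filter), with the library as a block where 2 classes of a library were compared. Levels are CPM of the summed counts. Shares were compared by exact permutation over libraries. Genes named for size were the 8 largest rises and 8 largest falls at adjusted p under 0.05 with at least 50 CPM, no overlap, and the call kept in every leave-one-out fit. Lineage, rule, clone-named and Y-linked genes were left out, and list examples were up to 4 called genes of largest change. PLK1, GADD45A, CCND1 and the genes of the comparison of cycling with other cells were chosen after their values were seen. Scrublet called 0% to 0.05% of cells in 4 libraries and 12.6% in day 34 replicate 2, so doublets were left in, and removal of the top scores (0.8% per 1000 barcodes) was an alternative. On simulated counts, the day comparison recovered 52% of 2-fold and 90% of 4-fold changes in mesenchymal-marked, 18% and 73% in epithelial-marked and 38% and 83% in all cycling cells, the comparison of lineages 86% and 98%, and the difference of day effects 58% and 83%. Intervals cover counting error only. Tools were R 4.3.3, DESeq2 1.42.0 (an alternative) and scanpy 1.11.5.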

Additional observations from a re-analysis of the deposited data

Results flagged for a closer look

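The day difference between cycling and other cells of the same libraries differed for 189 genes by an interaction term (edgeR, adjusted p under 0.05). The number ranged from 0 to 3748 when 1 library was left out, so no gene of it is named as a result.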

How the results depend on the processing

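The replicate numbers were treated as unpaired between days. Deviations of same-numbered day 21 and day 34 libraries from their day means correlated at -0.178 and -0.259. With 2 day 34 libraries these deviations mirror each other, so the correlations cannot settle whether the libraries were paired. With a replicate block, 0 genes were called between days in all cycling cells (edgeR; 3566 had an unadjusted p under 0.05, and DESeq2 without the block called 4050) and 516 in mesenchymal-marked ones, where 8 of 49 mitotic and 0 of 42 S phase genes fell and 3 of 11 CDK inhibitors and 3 of 22 growth factor genes rose. No such fit was possible for epithelial-marked cells, nor a fit without day 34 replicate 2. Without the library block, 4616 genes differed between the lineages and 0 in the day difference between cycling and other cells (edgeR; 280 with an unadjusted p under 0.05). With no filter beyond 1 count, 4807 genes were called in all cycling cells and 926 in that last comparison, where DESeq2 called 357. With counts thinned to 3000 UMIs per cell, the calls were 1377 in all cycling cells, 1781 in mesenchymal-marked and 1073 in epithelial-marked cells, 61 for the difference of day effects and 4467 between lineages. Members chosen after thinning, an alternative chosen after seeing the data, gave 1543 calls in all cycling cells, 2221 in mesenchymal-marked, 1220 in epithelial-marked cells and 6250 between lineages. The restriction to cells without squamous-list UMIs, the lineage shares by the rule on all UMIs and the scaling by library totals, whose counts stand in the report, were also chosen after seeing the data. Leaving out 1 library gave 464 to 5643 calls in all cycling cells, 990 to 3965 in mesenchymal-marked cells, 1665 to 2997 in epithelial-marked cells, 0 to 3748 for the difference of day effects and 4059 to 10554 between lineages. Of 98 recomputed share differences 96 kept their direction. The mesenchymal-marked share of cycling cells reversed to -1.34 percentage points without day 34 replicate 1 (range -1.34 to 36.6), and the difference between lineages reversed to -0.0549 with the rule on all UMIs. For the 64 pairs of gene and comparison named by size, in which some genes recur, 716 values were recomputed. Of these 693 kept their call, 23 lost it (17 of them with the block) and 0 changed direction. The leave-one-out fits among them kept the call by construction, since naming required it. The number of libraries limits the exact permutation test of shares between days to p = 0.2 or above.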
